A study of Mus musculus with 71 samples.

Results

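The genes followed here are 10 genes of dietary fat absorption and chylomicron assembly, taken by name from the 3 bulk RNA-sequencing tables of Btnl2-KO and WT mice. They are Cd36, Fabp1, Fabp2, Mogat2, Dgat1, Apob, Mttp, Apoa1, Apoa4, and Apoc3, which are 10 of the 24475 gene identifiers in each table, and all of them were present in each table. The tables hold 65 libraries of C57BL/6 mice. Tissue was sampled 7 times from Btnl2-KO and 7 times from WT small intestine, and 7 and 6 times from colon, from mice that the labels call young without a number, and the labels do not give the position along the small intestine. The intestinal epithelial cell (IEC) fraction, the upper layer of a Percoll gradient after EDTA stripping, gave 2 Btnl2-KO and 3 WT libraries of duodenum, 3 and 3 of jejunum, and 3 and 2 of ileum, from mice of 7 weeks by the labels. Intraepithelial lymphocytes with a γδ T cell receptor (γδ IELs), sorted as CD45+TCRβ-TCRγδ+ cells, gave 3 Btnl2-KO and 4 WT libraries of duodenum, 4 and 4 of jejunum, and 3 and 4 of ileum, from mice of 10 weeks by the labels, and each of these libraries is a pool of 2 mice. Btnl2-KO mice carry a LacZ knock-in at Btnl2, a butyrophilin-like gene of the epithelium, in every cell, and WT mice were their cohoused littermates. The small intestine was divided into 3 equal lengths to make the segments, so that "duodenum" and "ileum" stand for the first and the last of these lengths.

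Enterocytes take up the fatty acids and monoglycerides that digestion releases, build triglyceride from them in the endoplasmic reticulum, and load it onto apolipoprotein B to form chylomicrons that leave through the lymph. Cd36 is a fatty acid translocase of the cell surface. Fabp1 and Fabp2 encode the liver-type and the intestinal-type fatty acid binding proteins of the cytosol. Mogat2 and Dgat1 catalyse the consecutive steps from monoglyceride to triglyceride, Mttp transfers the lipid onto the Apob protein, and Apoa1, Apoa4, and Apoc3 encode exchangeable apolipoproteins of the particle surface. In the mouse, fat absorption is known as a task of the proximal small intestine, whereas the distal small intestine reabsorbs bile acids.

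All levels are CPM, counts scaled to the library size after TMM normalization, and SE is the standard error of a log2 fold change; a gene was called when edgeR's quasi-likelihood test gave a Benjamini-Hochberg false discovery rate (FDR) below 0.05 over all genes tested and a fold change above 1.5. Total counts were 13444958 to 38258472 per library. Btnl2 itself was at 23.9 to 103 CPM in WT and 0.675 to 2.44 CPM in Btnl2-KO small intestine, and the library labelled replicate 2 of Btnl2-KO jejunal IECs stood highest among Btnl2-KO IECs, with 19.5 CPM against 0.585 and 0.595 CPM in the other two, while replicate 1 of Btnl2-KO duodenal IECs held 5.45 CPM and WT IECs 25.1 to 67.7 CPM. Position markers went against the labels in some libraries. Fabp6, the ileal bile acid carrier, was at 220 CPM in replicate 1 labelled Btnl2-KO duodenal IECs and at 0.231 CPM in replicate 1 labelled Btnl2-KO ileal IECs, whereas WT duodenal IECs held 0.347 to 6.58 CPM and WT ileal IECs 579.7 and 586 CPM. Replicate 2 of Btnl2-KO jejunal IECs, the library of the high Btnl2, held 484 CPM of Fabp6 and 37.7 CPM of Gata4, a transcription factor of the proximal small intestine, against 4.34 to 20.2 and 117 to 141 CPM in WT jejunal IECs. In small intestinal tissue, Fabp6 was at 1174 to 3985 CPM in all but replicate 1 of Btnl2-KO (431 CPM) and replicate 5 of WT (105 CPM), and Gata4 was at 95.6 and 82.7 CPM in these, and at 0.167 to 15.1 CPM in the others. The colonic gene Car1 was at 846 and 1624 CPM in replicates 2 and 3 of WT small intestine, and at 0.61 CPM or less in the other small intestinal libraries.

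The upstream sequences of members that part along the intestine are shown for reference, from RefSeq's promoter windows on GRCm38.p6. Windows were at hand for 7 of the 10 members. Fabp1 and Fabp2 encode sister carriers, and Apoa1 and Apoa4 lie in 1 cluster with Apoc3 on chromosome 9 that spans 14829 bases, with Apoa1 at 46228630-46230469, Apoc3 at 46233050-46235636, and Apoa4 at 46240844-46243458. The 250 bases before the start of each gene read 5′ to 3′ in the gene's own direction, and capitals mark the letters AGGTCA, a nuclear receptor half-site, on either strand. Fabp1 and Fabp2 were picked for printing after their values had been seen.
Fabp1, chr6:71199629-71199878, plus strand: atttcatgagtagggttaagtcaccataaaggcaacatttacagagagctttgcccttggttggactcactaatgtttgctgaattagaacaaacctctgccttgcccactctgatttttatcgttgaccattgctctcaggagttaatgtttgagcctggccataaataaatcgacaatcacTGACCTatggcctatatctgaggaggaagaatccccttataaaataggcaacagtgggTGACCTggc
Fabp2, chr3:122894822-122895071, plus strand: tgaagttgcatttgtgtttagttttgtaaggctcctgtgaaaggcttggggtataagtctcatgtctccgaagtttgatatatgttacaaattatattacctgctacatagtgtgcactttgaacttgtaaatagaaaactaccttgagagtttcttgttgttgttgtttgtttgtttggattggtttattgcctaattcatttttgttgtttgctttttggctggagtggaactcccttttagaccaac
Apoa1, chr9:46228380-46228629, plus strand: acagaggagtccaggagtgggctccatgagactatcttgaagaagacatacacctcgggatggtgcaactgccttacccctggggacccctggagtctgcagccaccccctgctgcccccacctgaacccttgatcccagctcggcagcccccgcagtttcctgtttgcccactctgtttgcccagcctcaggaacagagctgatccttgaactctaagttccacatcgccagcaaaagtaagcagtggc
Apoa4, chr9:46240594-46240843, plus strand: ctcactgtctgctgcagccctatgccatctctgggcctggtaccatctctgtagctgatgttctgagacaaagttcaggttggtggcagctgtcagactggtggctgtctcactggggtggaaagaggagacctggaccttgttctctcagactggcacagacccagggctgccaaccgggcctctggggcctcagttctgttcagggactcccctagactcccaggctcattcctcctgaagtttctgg
AGGTCA or its reverse complement occurred in 16.3% of all 32851 windows of 300 bases, and among the members in those of Fabp1, where the matches began 67 and 9 bases before the start, and of Cd36. The HNF4 core CAAAGTCCA, found in 0.475% of all windows, and the GATA letters AGATAA, found in 11.2%, were in none of the 7 members' windows.

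The first comparison asked where along the gut the members are expressed, with small intestinal tissue set against colon in WT mice. Of the 10 members, 9 were higher in the small intestine, and Cd36 did not pass the test; 15.6% of the 15162 genes tested were called higher. The median log2 difference of the members was 6.99, against 0.02 over all genes, and 6.76 with Fabp1, Apoa4, and Apoc3 set to the low end of their counting intervals. Fewer cells of a type and less RNA per cell cannot be told apart in these bulk libraries, here or in any comparison below.

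The uptake gene Cd36 was the member that differed least between the organs. It was at 15.1 to 36.6 CPM (median 23.9) in WT colon and at 13.2 to 47.6 CPM (median 34.0) in WT small intestine, so that the groups overlapped, and the log2 fold change was 0.49 (SE 0.25, edgeR FDR 0.127). Tissue also holds fat and vessels that express Cd36. Summed adipocyte markers were at 25.8 to 160 CPM in WT small intestine and 23.8 to 85.3 CPM in WT colon, and summed endothelial markers, all 5 detected in every library, at 88.0 to 154 and 98.9 to 142 CPM. Their part in the level of Cd36 was not tested.

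The carriers differed in how far the colon used them. Fabp1 had 0 to 2 counts per WT colon library, 5 counts over the 6 libraries together, whereas WT small intestine held 0.723 to 79.8 CPM (median 6.13). The ratio of pooled counts was 498 (95% exact interval 213 to 1534, counting error only), and the edgeR FDR was 1.93e-04. Fabp2 was well above 0 in the colon, at 14.2 to 225 CPM (median 41.7), and at 99.8 to 1904 CPM (median 1124) in the small intestine, with a log2 fold change of 3.81 (SE 0.76, edgeR FDR 9.02e-04). The highest WT colon library exceeded the lowest WT small intestinal library for Fabp2.

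The genes of triglyceride synthesis and of particle assembly were all among the members called higher in the small intestine. Mogat2 was at 0.541 to 2.63 CPM in WT colon and at 53.1 to 197 CPM in WT small intestine (log2 fold change 6.80, SE 0.46, edgeR FDR 2.96e-08). Dgat1, which makes triglyceride in many tissues, was at 24.5 to 30.2 CPM in colon and 126 to 271 CPM in small intestine (log2 fold change 2.81, SE 0.18, edgeR FDR 1.98e-08). Apob and Mttp, whose products meet in the endoplasmic reticulum, were unlike in colon. Apob was at 106 to 152 CPM there and Mttp at 2.10 to 3.73 CPM, with means of 9.69 and 0.737 CPM per kilobase of transcript. In the small intestine they were at 323 to 2337 and 219.8 to 827 CPM, which gave log2 fold changes of 3.40 (SE 0.42, edgeR FDR 1.21e-05) for Apob and 7.18 (SE 0.37, edgeR FDR 2.02e-09) for Mttp.

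Among the exchangeable apolipoproteins, Apoa1 had the largest difference of the 10 members. It was at 0.268 to 1.32 CPM in WT colon and at 186 to 3441 CPM (median 2342) in WT small intestine, a log2 fold change of 11.52 (SE 0.93, edgeR FDR 2.05e-07). Apoa4 and Apoc3 had 4 counts each over the 6 WT colon libraries. Their pooled ratios were 1276 (95% exact interval 498 to 4685) and 269 (105 to 990.4), with edgeR FDRs of 9.51e-05 and 1.46e-05. In WT small intestine Apoa4 was at 1.67 to 178 CPM (median 19.2) and Apoc3 at 1.39 to 27.0 CPM (median 10.9). Per kilobase of transcript the means there were 27.2 CPM for Apoa4 and 19.4 CPM for Apoc3, against 1776 CPM for Apoa1.

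**Figure D1:**
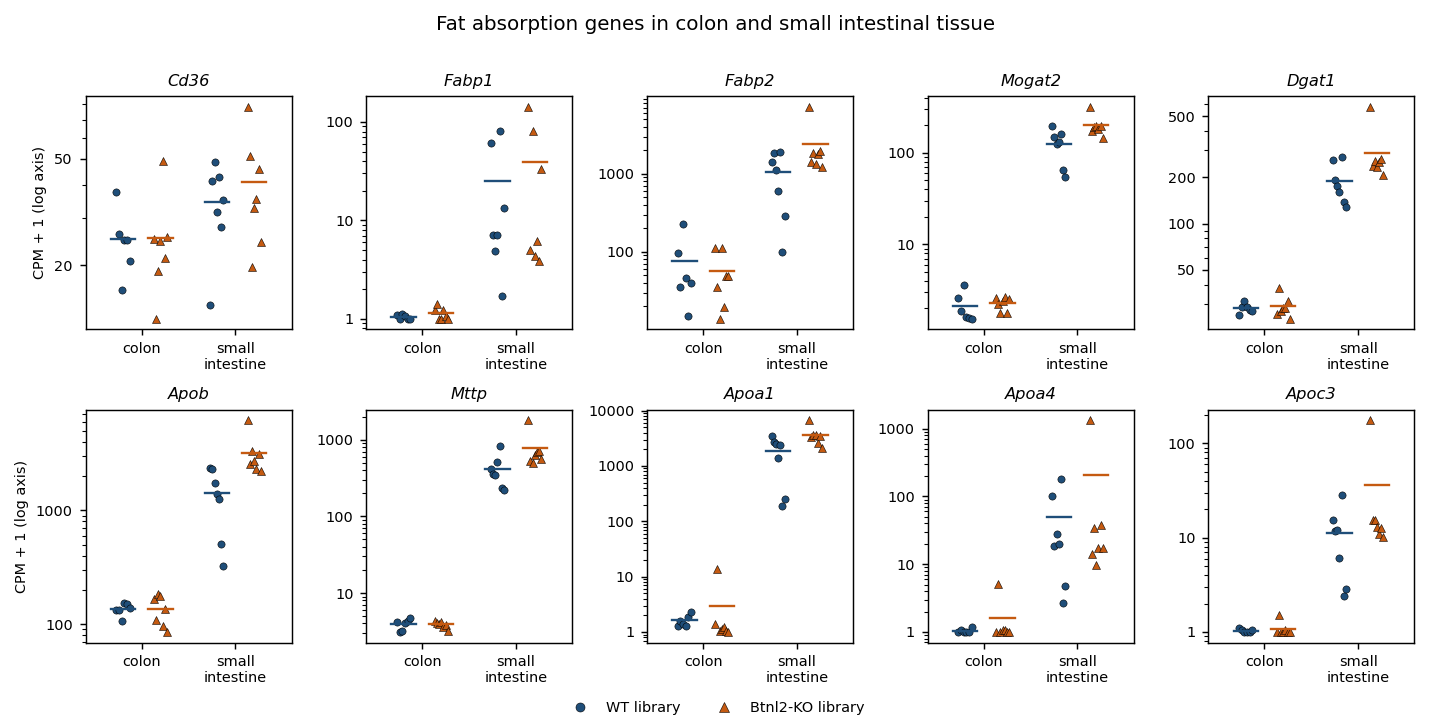
Levels of the 10 genes in colon and small intestinal tissue, as CPM + 1 on a log axis, with 1 point per library (circles, WT; triangles, Btnl2-KO) and a line at the mean of each group. Cd36 overlaps between the organs, Fabp1, Apoa4, and Apoc3 lie near 0 in colon, and 1 Btnl2-KO small intestinal library lies above the others of its group for most genes, for Apoa4 at 1336 CPM against 36.7 CPM in the next.

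The same contrast in Btnl2-KO mice gave the same 9 calls, with 15.7% of 14798 genes called higher and a median log2 difference of 7.65 (7.21 with the same genes at their low ends). Cd36 again missed the threshold (log2 fold change 0.72, SE 0.31, edgeR FDR 0.0657), and DESeq2 called all 10. Replicate 2 of Btnl2-KO colon was the exception for the apolipoproteins, with 12.7 CPM of Apoa1 and 4.12 CPM of Apoa4, where the other 6 libraries had at most 0.407 and 0.0672 CPM. Fabp6 was also highest there among colon libraries, at 9.57 CPM. No member's difference between the organs passed an FDR of 0.05 in an interaction test with genotype. The smallest edgeR FDR was 0.323, for Apob, among 15540 genes of which 3 had an FDR below 0.05. Apob and Mttp were the members with an unadjusted p below 0.05 by edgeR. Their log2 fold changes were larger in Btnl2-KO by 1.17 (SE 0.46) and 0.90 (SE 0.42).

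Of 32 other genes of fat and sterol handling that passed the count minimum, 22 were higher and 3 lower in WT small intestine than colon. Over all 15162 genes 2371 were higher and 1814 lower. Npc1l1, the intestinal sterol importer, had a log2 fold change of 10.16, Pla2g12b, which takes part in lipoprotein secretion, of 4.76, and Abcg8, a sterol exporter, of 4.66. Lower were Acsl3 (-2.25), an acyl-CoA synthetase, Scarb1 (-1.09), a lipoprotein receptor, and Plin2 (-1.04), which coats lipid droplets. In Btnl2-KO mice the counts were 23 and 3, against 2327 and 2136 of 14798 genes.

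The second comparison followed the members along the small intestine in the IEC fraction of WT mice. Ileal against duodenal IECs, 4 of the 10 members were lower, Fabp1, Apoa4, Apoc3, and Mttp, while 2.38% of the 13046 genes tested were called lower. The median log2 difference of the members was -1.41, against 0.01 over all genes. All 10 passed the count minimum. Summed pan-epithelial markers, all 12 detected in each library, were at 10223 to 14314 CPM in WT duodenal and 12607 to 13622 CPM in WT ileal IECs, and goblet cell markers at 8322 to 9769 and 16806 to 17941 CPM, and the part of goblet cells in the members' levels was not tested.

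Fabp1 had the steepest decline. It was at 549, 1327, and 545 CPM in the duodenal libraries, at 71.2, 419, and 292 CPM in the jejunal, and at 15.3 and 5.10 CPM in the ileal libraries, so that duodenum and ileum did not overlap. The log2 fold change from duodenum to ileum was -6.27 (SE 0.97, edgeR FDR 0.00574). Fabp2 was at 509, 861, and 558 CPM in duodenum, 366, 636, and 669 CPM in jejunum, and 322 and 370.5 CPM in ileum, with a log2 fold change of -0.86 (SE 0.32, edgeR FDR 0.172).

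Apoa4 and Apoc3 followed Fabp1, and their neighbour Apoa1 did not pass the test. Apoa4 was at 311, 325, and 153 CPM in duodenum, 21.6, 121, and 161 CPM in jejunum, and 8.46 and 3.82 CPM in ileum (log2 fold change -5.39, SE 0.91, edgeR FDR 0.00864). Apoc3 was at 12.5, 18.4, and 9.85 CPM, 3.21, 12.04, and 11.5 CPM, and 1.09 and 1.42 CPM (log2 fold change -3.40, SE 0.60, edgeR FDR 0.0104). Apoa1 was at 608, 1033, and 245 CPM, 136, 656, and 787 CPM, and 253 and 374 CPM, so that its ileal libraries lay within the range of the duodenal ones (log2 fold change -0.97, SE 0.73, edgeR FDR 0.534).

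Mttp was called and its partner Apob was not. Mttp was at 1692, 2641, and 1571 CPM in duodenum, 706, 1436, and 1139 CPM in jejunum, and 657 and 542 CPM in ileum (log2 fold change -1.68, SE 0.36, edgeR FDR 0.0237). Apob was at 1164, 307, and 1209 CPM, 878, 949, and 1320 CPM, and 575 and 829.8 CPM (log2 fold change -0.33, SE 0.51, edgeR FDR 0.787). Duodenal replicate 2 stood apart from the other two here, low in Apob and high in Dgat1. Dgat1 was at 253, 717, and 180.3 CPM in duodenum and 178 and 134 CPM in ileum (log2 fold change -1.26, SE 0.57, edgeR FDR 0.268). Mogat2 was at 134, 259, and 93.6 CPM against 72.8 and 70.7 CPM (log2 fold change -1.14, SE 0.47, edgeR FDR 0.219). Cd36 was low throughout, at 12.6, 16.2, and 11.98 CPM in duodenum and 8.28 and 0.655 CPM in ileum (log2 fold change -1.57, SE 0.77, edgeR FDR 0.315). Adipocyte markers were at 0.191 CPM or less in the WT duodenal IECs, and in ileum at 2.33 and 0.0728 CPM.

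**Figure D2:**
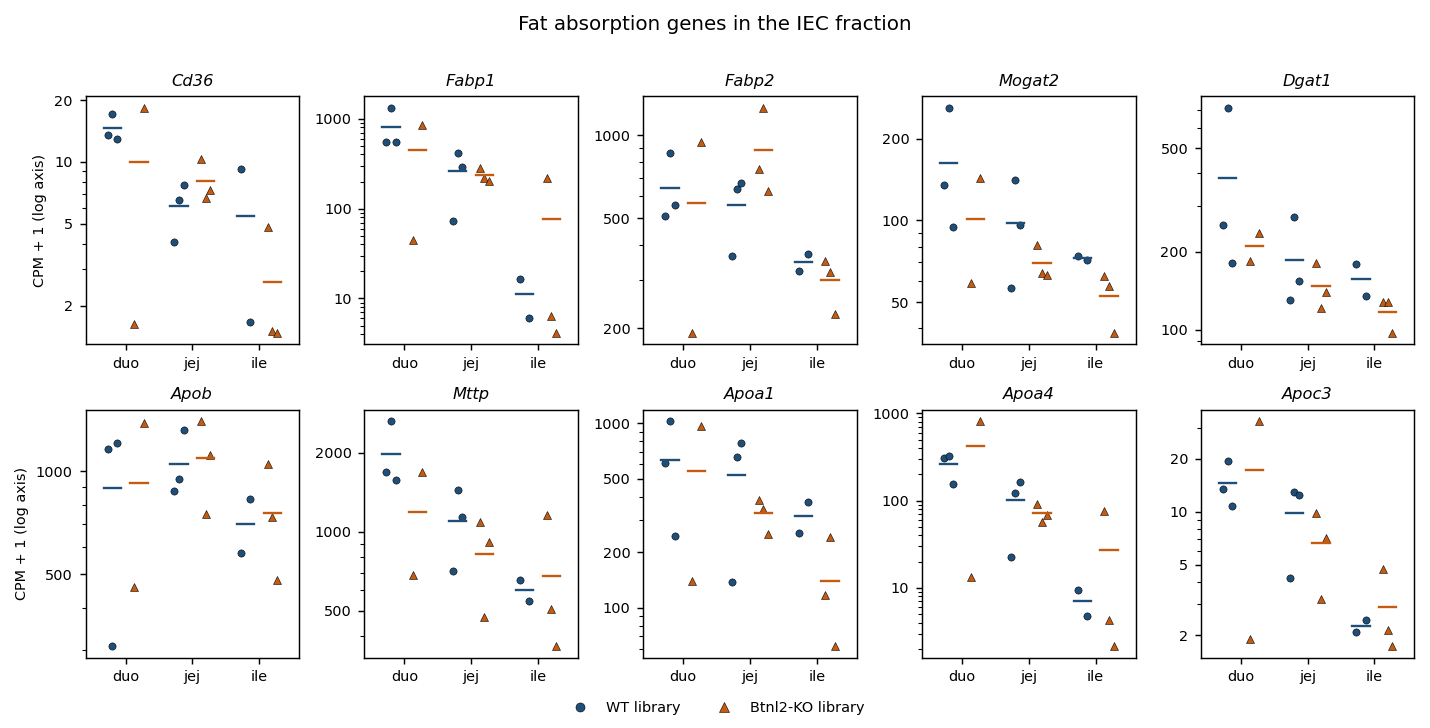
Levels of the 10 genes in the IEC fraction of duodenum (duo), jejunum (jej), and ileum (ile), as CPM + 1 on a log axis, with 1 point per library (circles, WT; triangles, Btnl2-KO) and a line at each group's mean. Among WT libraries Fabp1 and Apoa4 have log2 fold changes of -6.27 and -5.39 from duodenum to ileum and the segments overlap for Apob; 1 library labelled duodenal and 1 labelled ileal among the Btnl2-KO lie far from the rest of their groups for Fabp1.

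For jejunal IECs against duodenum, edgeR called 0 members (2 had an unadjusted p below 0.05) and 0.767% of all genes, with Fabp1 at a log2 fold change of -1.60 (SE 0.65, edgeR FDR 0.320) and Mttp at -0.83 (SE 0.30, edgeR FDR 0.283). DESeq2 also called 0 members there, and 427 genes against 100 by edgeR. Ileum against jejunum, edgeR called 0 members (4 had an unadjusted p below 0.05) and 0.644% of all genes, and DESeq2 called 3. Fabp1 had a log2 fold change of -4.66 (SE 0.89, edgeR FDR 0.0651), Apoa4 of -4.03 (SE 0.85, edgeR FDR 0.0932), and Apoc3 of -2.81 (SE 0.58, edgeR FDR 0.0896). The other fat handling genes gave 1 higher and 3 lower calls of 32 from duodenum to ileum, against 549 and 311 of 13046 genes. Mgll, a monoglyceride lipase, was higher (log2 fold change 1.38), and Apoc2, the cofactor of lipoprotein lipase (-2.82), Scarb1 (-2.26), and the acyl-CoA synthetase Acsl1 (-0.87) were lower. In both contrasts with jejunum edgeR called 0 of the 32, with 8 and 3 at an unadjusted p below 0.05 and 1 and 0 called by DESeq2.

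WT ileal IECs have 2 libraries, and leaving out 1 leaves a lone library that is assumed to vary like those of the other segments. Without WT ileal replicate 2 edgeR called 0 members from duodenum to ileum, with Fabp1 at a log2 fold change of -5.68, and without replicate 1 it called 2, with Fabp1 at -7.31. When all 16 IEC libraries entered the fit it called 0 members, and when the 3 libraries whose Fabp6 or Btnl2 goes against the label were kept out it called 4, as above.

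The members were also detected in the sorted γδ IELs, in a fraction that should hold T cells. Of 12 listed genes of γδ IELs 11 were in the table, and all 11 were detected and summed to 39514 to 58045 CPM in the WT libraries, and pan-epithelial markers, 12 of 12 detected, to 3311 to 5303 CPM in duodenum, 2044 to 5649 CPM in jejunum, and 3461 to 9033 CPM in ileum. The part of epithelial RNA in the members' levels was not tested beyond its use as a covariate, given below. Adipocyte markers were at 0.131 CPM or less in these WT libraries.

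From duodenum to ileum, 5 of the 10 members were lower in WT γδ IELs, Fabp1, Apoa4, Apoc3, Apoa1, and Mttp, while 1.03% of 12899 genes were called lower and the members' median log2 difference was -2.31, against -0.01 over all genes. Fabp1 was at 1285, 678, 211, and 415 CPM in duodenum, 28.6, 81.9, 34.8, and 62.3 CPM in jejunum, and 0.715, 1.65, 0.400, and 0.847 CPM in ileum, with no overlap between any of the segments. Its log2 fold change from duodenum to ileum was -9.49 (SE 0.70, edgeR FDR 9.47e-06). Apoa4 was at 837, 412, 123, and 308 CPM, 22.8, 80.8, 23.4, and 98.1 CPM, and 1.01, 2.87, 0.400, and 0.395 CPM (log2 fold change -8.52, SE 0.86, edgeR FDR 1.47e-04). Apoc3 fell by 4.28 on the log2 scale (SE 0.70, edgeR FDR 0.00480), from 11.7 to 114 CPM in duodenum to 1.64 to 4.66 CPM in ileum.

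Fabp2 and Apoa1 were well above 0 in the ileum. Fabp2 was at 1051, 635, 209.8, and 342 CPM in duodenal, 98.5, 295, 86.8, and 297 CPM in jejunal, and 67.5, 259, 185, and 116 CPM in ileal γδ IELs, with overlap between duodenum and ileum (log2 fold change -1.82, SE 0.55, edgeR FDR 0.125). Apoa1 was at 248 to 1667 CPM in duodenum and 37.7 to 257 CPM in ileum and was called (log2 fold change -2.76, SE 0.65, edgeR FDR 0.0439). Mttp was at 76.2 to 161 CPM against 18.3 to 45.5 CPM (log2 fold change -1.87, SE 0.32, edgeR FDR 0.00612), and Apob at 33.3 to 72.7 CPM against 8.64 to 21.4 CPM (log2 fold change -1.57, SE 0.40, edgeR FDR 0.0594). Dgat1 had the smallest fold change, at 108 to 147 CPM in duodenum and 81.1 to 117 CPM in ileum (log2 fold change -0.35, SE 0.16, edgeR FDR 0.422). Mogat2 was at 48.4 to 104 CPM against 13.3 to 39.1 CPM (log2 fold change -1.32, SE 0.36, edgeR FDR 0.0806). Cd36 had 0 counts in 2 of the 4 ileal libraries and 0.864 to 7.32 CPM in duodenum (edgeR FDR 0.0593).

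Jejunal γδ IELs differed from both other segments in many genes. Against duodenum, 4 members were lower (Fabp1, Apoa4, Apoc3, and Fabp2) and 12.1% of all genes were called lower, and ileum against jejunum 6 were lower (Fabp1, Apoa4, Apoc3, Cd36, Mttp, and Apob), with 10.5% of all genes. The log2 fold changes from duodenum to jejunum were -3.65 for Fabp1 (SE 0.50, edgeR FDR 0.00208), -2.91 for Apoa4 (0.62, FDR 0.00451), -1.959 for Apoc3 (0.61, FDR 0.0250), and -1.54 for Fabp2 (0.54, FDR 0.0419). From jejunum to ileum they were -5.83 for Fabp1 (SE 0.63, edgeR FDR 0.00182), -5.61 for Apoa4 (0.79, FDR 0.00378), -3.05 for Cd36 (1.06, FDR 0.0403), -2.32 for Apoc3 (0.66, FDR 0.0182), -1.62 for Mttp (0.31, FDR 0.00487), and -1.37 for Apob (0.39, FDR 0.0185). With the mean of the pan-epithelial markers as a covariate, 9 members were called from duodenum to ileum, 5 from duodenum to jejunum, and 9 from jejunum to ileum. All of these were lower, and over all 12899 genes 356, 1706, and 826 were called lower in the same order. In a fit of all 22 γδ IEL libraries the counts of members were 3, 2, and 2, against 65, 1061, and 936 of 13360 genes called lower.

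**Figure D3:**
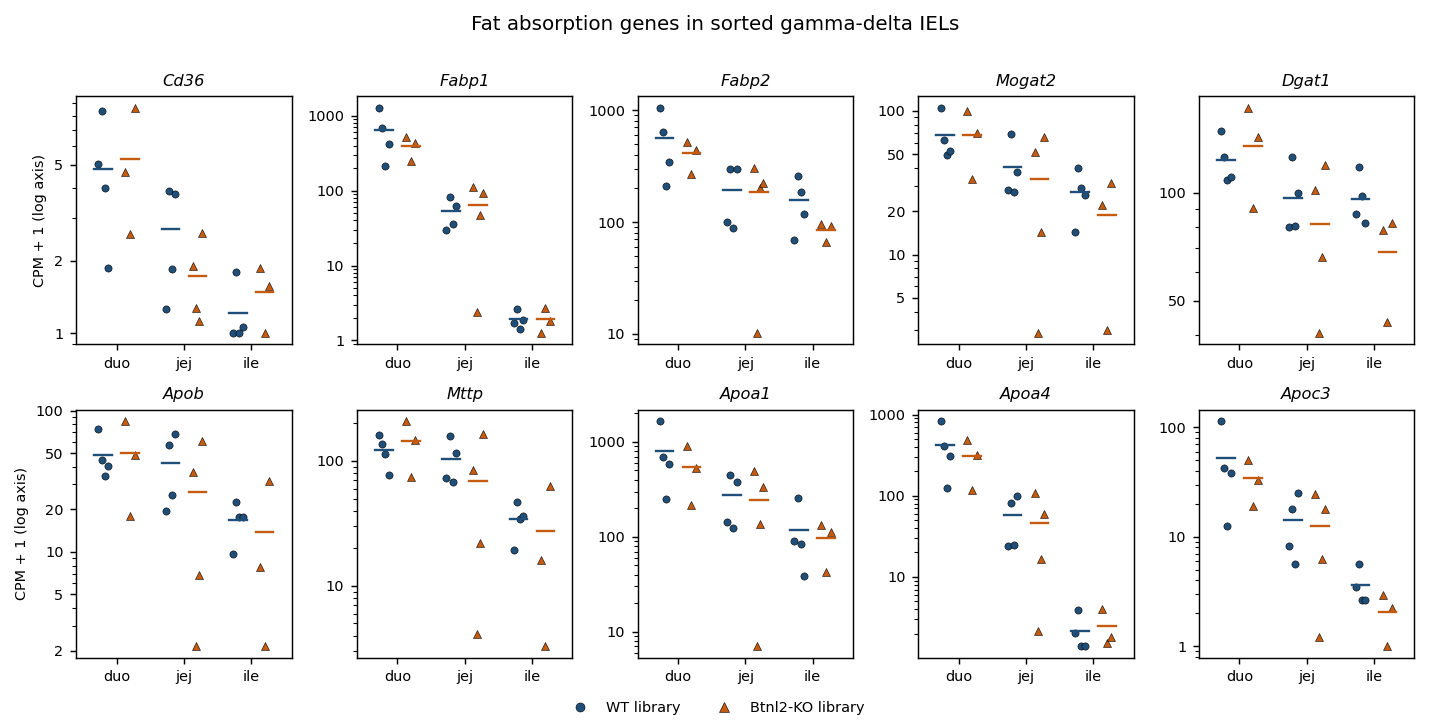
Levels of the 10 genes in sorted γδ IELs of duodenum (duo), jejunum (jej), and ileum (ile), as CPM + 1 on a log axis, with 1 point per library (circles, WT; triangles, Btnl2-KO) and a line at each group's mean. Fabp1 and Apoa4 are at 0.395 to 2.87 CPM in WT ileum, Fabp2 and Dgat1 are at 67.5 CPM or more in every WT library, and 1 jejunal Btnl2-KO library is low for all but Cd36, with 9.15 CPM of Fabp2.

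Of 32 other fat handling genes in γδ IELs, 0 were higher and 2 lower from duodenum to ileum, namely Creb3l3 (log2 fold change -5.18), a membrane-bound transcription factor that activates apolipoprotein genes, and the fatty acid transport protein gene Slc27a4 (-0.90). Over all 12899 genes 139 were higher and 133 lower there. From duodenum to jejunum 5 were lower, led by Apoc2 (-2.23), Creb3l3 (-2.01), and the acyl-CoA binding protein gene Dbi (-1.34), against 1563 of 12899 genes. From jejunum to ileum Mgll (2.43) and Dbi (1.01) were higher and 5 were lower, led by Creb3l3 (-3.17), Npc1l1 (-1.14), and Gpat3 (-1.04), an enzyme of glycerolipid synthesis. Over all 12899 genes 1466 were higher and 1356 lower in that contrast.

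A ratio within a library does not change with the share of enterocyte RNA if both genes come from the same cells, and for this reason the members that part along the intestine were set against each other. Both ratios were chosen after the values had been seen. In duodenal γδ IELs of WT mice there were 100.4 to 122 counts of Fabp1 per 100 counts of Fabp2, in jejunal 21.0 to 40.1, and in ileal 0.216 to 1.06. In WT IECs there were 97.7 to 154, 19.5 to 65.9, and 1.38 to 4.75. Apoa4 behaved alike against Apoa1, with 49.6 to 59.1, 15.9 to 26.3, and 0.482 to 1.13 counts per 100 in γδ IELs, and 31.4 to 62.5, 15.9 to 20.5, and 1.02 to 3.35 in IECs. The WT segments did not overlap for either ratio in either fraction. Btnl2-KO IECs, with the libraries whose Fabp6 goes against the label, did overlap between duodenum and ileum. They held 22.8 to 90.8 and 1.39 to 62.9 counts of Fabp1 per 100 of Fabp2. For Apoa4 per 100 of Apoa1 they held 8.92 to 85.4 and 1.37 to 64.9. In WT γδ IELs the log2 ratio of Fabp1 to Fabp2 was lower in ileum than in duodenum by 7.56 and that of Apoa4 to Apoa1 by 5.82. These values are descriptions. Exact permutation tests between the segments were also run, but on ratios picked from the same values, so they lend no support. Each p was the smallest that the library numbers allow, 0.0286 in γδ IELs and 0.1 or 0.2 in IECs. The smallest Benjamini-Hochberg value over the 12 permutation tests was 0.0571.

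**Figure D4:**
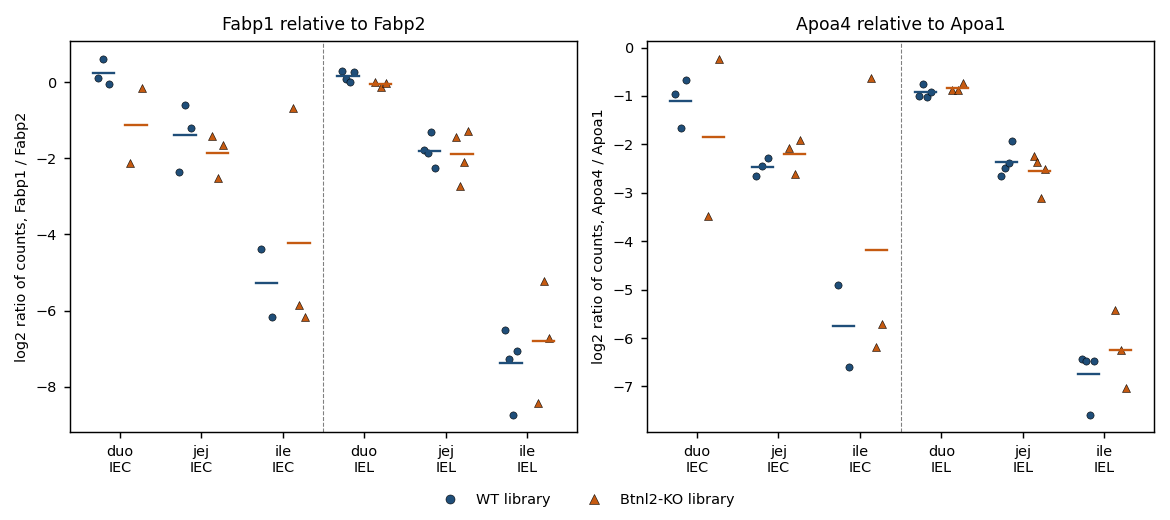
Log2 ratio of counts within each library, Fabp1 to Fabp2 on the left and Apoa4 to Apoa1 on the right, by segment (duo, jej, ile) and fraction, with 1 point per library (circles, WT; triangles, Btnl2-KO) and a line at each group's mean. The ratios fall from duodenum to ileum in both fractions, and the WT segments do not overlap.

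Levels of different genes can be compared only per length of transcript, here per kilobase of the longest principal GENCODE transcript. In WT duodenal IECs, Fabp1 led with 1459 CPM per kilobase, followed by Fabp2 (666), Apoa1 (607), and Mttp (497). Cd36 was last. In WT ileal IECs the order was Fabp2 (359), Apoa1 (303), and Mttp (151), with Fabp1 at 18.4. In WT small intestinal tissue, whose libraries were high in Fabp6 except replicate 5, Apoa1 (1776) and Fabp2 (1079) led, with Fabp1 at 43.9. In WT ileal γδ IELs Fabp2 (163) and Apoa1 (113) led as well, and Apoa4 was at 0.644 CPM per kilobase.

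The sorted γδ IELs and the IECs were sequenced in separate tables from mice of different ages, so their values are given side by side without a test. In WT duodenum the mean level in γδ IELs came to 80.2% of that in IECs for Fabp1, 87.0% for Fabp2, 127% for Apoa1, 160% for Apoa4, and 375% for Apoc3, but to 5.30% for Apob and 6.17% for Mttp. The epithelial genes Epcam and Vil1 gave 71.7 and 7.54%. Cd36 was at 28.1%, Mogat2 at 40.9%, and Dgat1 at 31.9%. Apob and Mttp have the longest transcripts of the 10, 13934 and 3963 bases. In ileum the percentages were 45.3% for Fabp2, 37.3% for Apoa1, 8.86% for Fabp1, and 2.25% for Apob. The labels and the paper name different library kits, and the part of length or kit was not tested.

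The last comparison was the one the study was built for, Btnl2-KO against WT, in each of 8 places. No member was called in any of them by edgeR. DESeq2 called 1 in small intestine and 0 in the other 7 places. In small intestinal tissue 0 of 10 members were called, against 0.0202% of 14866 genes. An unadjusted p below 0.05 was found for 5 members, and for 3415 of all 14866 genes. All 10 members had a higher fitted value in Btnl2-KO, with a median log2 difference of 0.93 against -0.03 over all genes. DESeq2 and a fit over all 27 tissue libraries each called 1 member, Apob. Apob was at 323 to 2337 CPM (median 1380) in WT and at 2230.3 to 6190.1 CPM (median 2698) in Btnl2-KO small intestine, and only 2 WT libraries reached the lowest Btnl2-KO library (log2 fold change 1.16, SE 0.40, edgeR FDR 0.136, DESeq2 FDR 0.0340). The lowest difference was that of Cd36 (log2 fold change 0.25, SE 0.30, edgeR FDR 0.620) and the highest that of Apoa4 (2.07, SE 1.27, edgeR FDR 0.331).

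The value of Apoa4 rested on 1 library. Btnl2-KO replicate 1, which was high in Gata4, held 1336 CPM of Apoa4 and the other 6 held 8.66 to 36.7 CPM, whereas WT libraries ranged from 1.67 to 178 CPM. Without both Gata4-high libraries the log2 fold change of Apoa4 was -0.45, that of Apob 0.89, and that of Apoc3 0.67 in place of 1.77. The members' median was then 0.61, and 2 members in place of 5 had an unadjusted p below 0.05, with 2338 of 14907 genes. Without the Car1-high libraries the median was 1.03 and 2 members had such a p, with 4216 of 14971 genes. EdgeR called 0 members in either case, and neither exclusion was planned in advance. A planned fit kept all libraries and used a position covariate, the proximal minus the distal markers. It gave a median of 0.95, 0 members called, and 6 members with such a p, with 3419 of 14866 genes. The members together summed to 6556 to 24523 CPM in Btnl2-KO (median 8715) and 1253 to 8259 CPM in WT small intestine (median 6122). Enterocyte genes outside fat absorption, such as Alpi and Sis, moved with them. These 11 genes summed to 12213 to 22160 CPM in Btnl2-KO and 2231 to 12656 CPM in WT libraries, and the lowest values were those of WT replicates 6 and 7, which were also the lowest for Apob, Apoa1, and Fabp2. Their part in the result was not tested. Of 32 other fat handling genes, edgeR called 0 and DESeq2 4. With all libraries 16 of the 32 had an unadjusted p below 0.05, against 3415 of all 14866 genes. Of the 32, 28 were above 0, at a median log2 difference of 0.44.

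In colon, 6 members passed the count minimum and 0 were called by edgeR or DESeq2, with 0 at an unadjusted p below 0.05, against 0.0269% of 14871 genes. Fabp2 was lowest (log2 fold change -0.47, SE 0.60, edgeR FDR 0.976) and Mogat2 highest (0.19, SE 0.37, edgeR FDR 0.979). Fabp1, Apoa1, Apoa4, and Apoc3 were too low in colon to be tested.

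In IECs of the duodenum 0 members were called, with 0% of 12584 genes, 154 genes at an unadjusted p below 0.05 and 1 gene called by DESeq2. Dgat1 was lowest (log2 fold change -0.85, SE 0.57, edgeR FDR 0.99997) and Apoa4 highest (0.67, SE 1.18, edgeR FDR 0.99997). WT replicate 2 held 717 CPM of Dgat1, and the other libraries of both genotypes 180.3 to 253 CPM. Apoa4 rested on the Btnl2-KO libraries, with 12.4 CPM in the one labelled replicate 1 and 822 CPM in replicate 2, and its log2 fold change was 1.65 without the first and -4.38 without the second. The members' median was -0.38 with all libraries and 0.46 without the first, where 0 members were called and Apoa4 and Apoc3 had an unadjusted p below 0.05. In the jejunum 0 members were called, with 0% of 12543 genes, 1053 genes at an unadjusted p below 0.05 and 1 gene called by DESeq2, and the members ranged from Apoa1 (log2 fold change -0.70, SE 0.53, edgeR FDR 0.651) to Fabp2 (0.65, SE 0.31, edgeR FDR 0.568). Without Btnl2-KO replicate 2, which was high in Btnl2 and Fabp6, the range went from Apoa1 (-0.72) to Cd36 (0.64), the members' median was -0.16 in place of -0.37, and 0 members were called or had an unadjusted p below 0.05 by edgeR. In the ileum 0 members were called, with 0.00774% of 12925 genes, and the range went from Cd36 (-1.54, SE 1.26, edgeR FDR 0.900) to Fabp1 (2.93, SE 1.94, edgeR FDR 0.900). Fabp1 was at 221, 5.47, and 3.11 CPM in the Btnl2-KO ileal libraries, and without the first, whose Fabp6 was near 0, its log2 fold change was -1.27. The members' median was -0.56 without that library and -0.04 with it, and 0 members were called, with 4 in place of 0 at an unadjusted p below 0.05 (Apoa4, Cd36, Dgat1, and Mogat2). DESeq2 gave such a p to 1 member each in jejunal and ileal IECs with all libraries.

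In γδ IELs 0 members were called in the duodenum (0.00789% of 12680 genes), the jejunum (0.00794% of 12594 genes), and the ileum (0% of 12604 genes, with 1108 at an unadjusted p below 0.05 and 221 called by DESeq2, none of them a member). In duodenum the members ranged from Fabp1 (log2 fold change -0.69, SE 0.49, edgeR FDR 0.997) to Mttp (0.23, SE 0.32, edgeR FDR 0.997). In jejunum they ranged from Cd36 (-1.19, SE 0.90, edgeR FDR 0.639) to Fabp1 (0.31, SE 0.91, edgeR FDR 0.921), and Btnl2-KO replicate 2 was the lowest library for 9 of the 10, with 605 CPM of summed pan-epithelial markers. In ileum they ranged from Apoc3 (-1.28, SE 0.89, edgeR FDR 0.664) to Cd36 (1.26, SE 1.35, edgeR FDR 0.782), and Fabp2 was the 1 member with an unadjusted p below 0.05 by edgeR (-0.88, SE 0.39, edgeR FDR 0.562). With the epithelial covariate edgeR called 0 members in each segment, and 3 in duodenum, 1 in jejunum, and 4 in ileum had such a p. Over all genes 290 of 12680, 1385 of 12594, and 828 of 12604 had one in that fit. The covariate moved the members' median log2 fold change from -0.21 to -0.62 in duodenum and from -0.22 to 0.15 in jejunum. In ileum the median changed sign as well, from -0.30 to 0.92.

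**Figure D5:**
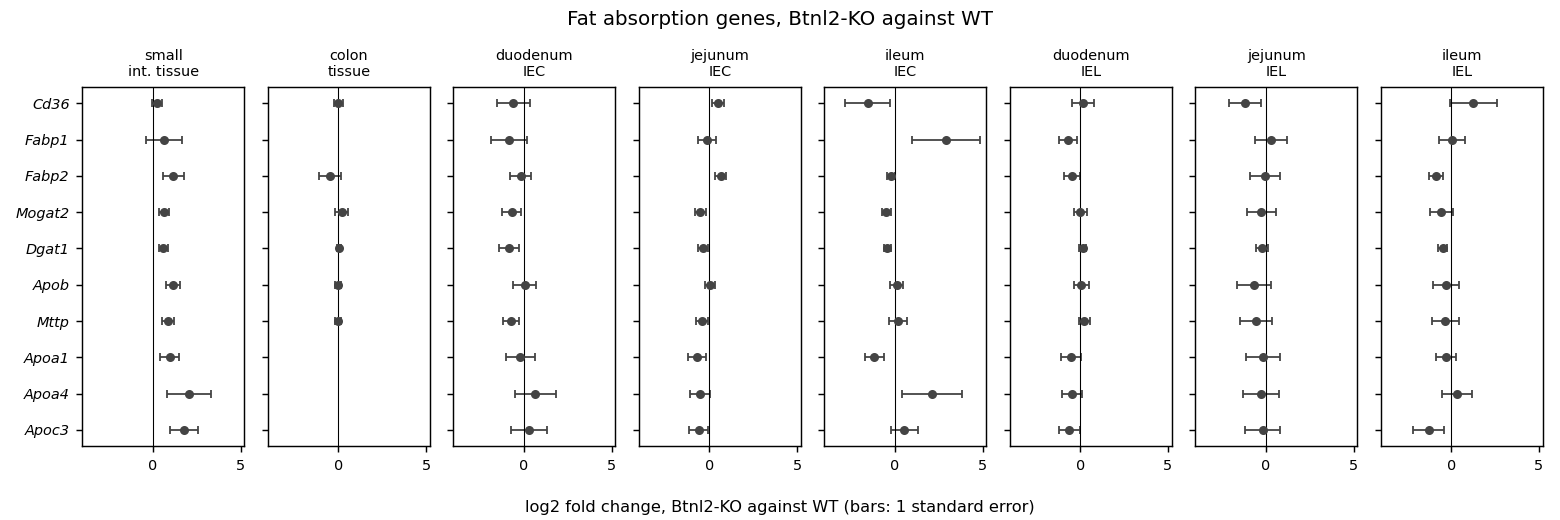
Log2 fold change of each gene between Btnl2-KO and WT libraries in the 8 comparisons, with bars of 1 SE from edgeR. In small intestinal tissue all 10 values lie above 0, colon shows the 6 genes that passed the count minimum, and no value was called.

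An interaction test found no member whose change from duodenum to ileum differed between genotypes past an FDR of 0.05. With few libraries per group and SEs as large as 2.12, this does not show that the changes are equal. The smallest edgeR FDR was 0.996 in IECs, where Fabp1 differed by 3.77 (SE 2.12) with all libraries included, and 0.716 in γδ IELs, for Dgat1. The IEC fit held the Btnl2-KO duodenal and ileal libraries whose Fabp6 goes against the label, and it was not run without them. In both fractions 0 genes had an FDR below 0.05.

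Over the 16 IEC libraries, the mean pattern of the members was most like that of Slc2a2, the glucose transporter of the basolateral membrane, with Pearson's r of 0.987. Cyp2c55 (0.969), the retinol binding protein gene Rbp2 (0.967), Maob (0.962), and Cyp2d26 (0.961) followed, among 7939 genes with a mean of 10 CPM or more. Members, other fat handling genes, and unnamed identifiers were left out of this ranking and of the next. Single members had r of 0.342 (Apob) to 0.971 (Apoa4) with the mean of the other 9. Over the 14 small intestinal tissue libraries, Acbd4 (0.978), the peptidase gene Ace (0.974), Tmem86b (0.968), Rab8a (0.965), and Acy3 (0.959) were most alike among 9877 genes, and single members had r of 0.274 (Cd36) to 0.969 (Apoc3). These libraries share segment, enterocyte content, and depth, so the values of r are descriptions only.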

How the data were processed

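The 65 bulk libraries were grouped by tissue, segment, fraction, and genotype from the labels. Per the labels and the paper, the authors used ArrayStudio and a customized mouse genome for mapping (GRCm38 in the submitters' processing notes) and deposited RSEM expected counts on the sense strand of exons, which were rounded here. The paper and the labels name different library kits. Of 24475 identifiers, 24375 matched a RefSeq symbol, and 1 column of no sample used here was left out. The single-cell files were not used. In 122 replicate pairs the smallest chi-square per degree of freedom was 5.08, so none was counted as a duplicate. p-values measure the spread between libraries.

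A gene was tested when it reached 10 counts in a number of libraries equal to the smallest group, with edgeR 4.0.16 (quasi-likelihood, TMM, tested on simulated data); WT segments of a table shared 1 fit, and other contrasts used the groups compared. Alternatives were DESeq2 1.42.0, other size factors, no filter, no fold minimum, other sets of libraries, and covariates. The members, gene lists, and rules were chosen with earlier results of these data known. Named were all members in the organ and WT segment contrasts, the lowest and highest members in the genotype contrasts, and up to 3 other fat handling genes per direction.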

Additional observations from a re-analysis of the deposited data

Results flagged for a closer look

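Of 75 pairs of a member and a group of 4 to 7 libraries, 12 had 1 library far from the others by Dixon's test on CPM. Chance does this in about 1 of 20 groups of independent, normally distributed values. CPM need not be normally distributed and the members share libraries, so this rate is no yardstick here. In Btnl2-KO small intestine replicate 1 was the highest of 7 libraries for all 10 members and far from the others by this test for 8, with Fabp2 at 7177 CPM (next 1949), Mogat2 at 314 (next 193), Dgat1 at 572 (next 260.3), Apob at 6190.1 (next 3295), Mttp at 1810 (next 710.3), Apoa1 at 6730 (next 3698), Apoa4 at 1336 (next 36.7), and Apoc3 at 175 CPM (next 14.5). This library also held Gata4 at 95.6 CPM. In Btnl2-KO colon, replicate 2 was highest for Apoa1 (12.7 CPM, next 0.407) and Apoa4 (4.12 CPM, next 0.0672), and replicate 5 for Cd36 (47.9 CPM, next 24.5). In WT ileal γδ IELs, replicate 2 was highest for Cd36 (0.788 CPM, next 0.0565). No member's interaction of genotype with segment or organ passed an FDR of 0.05, which does not show that the differences are equal.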

How the results depend on the processing

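No paired analysis was possible because the labels give a library number for each sample and no replicate number shared between groups. The 9 calls between the organs in WT held under DESeq2, other size factors, no count filter, and without the libraries high in Gata4 or Car1. The counts of members called between segments were less stable. In ileal against duodenal IECs the 4 calls became 0 in a fit of all IEC libraries and were 0 to 4 with 1 library left out, where a lone WT ileal library is assumed to vary like the other segments. In ileal against jejunal IECs the 0 calls became 3 with DESeq2, 1 without the count filter, 1 with only the segments compared, and 3 with all but the 3 doubted libraries, and 0 to 3 with 1 library left out. In γδ IELs the 4 calls of jejunum against duodenum became 2 in a fit of all libraries and 2 to 6 with 1 left out. The 5 calls of ileum against duodenum became 8 with DESeq2, 3 in a fit of all libraries, 9 with the epithelial covariate, and 4 to 7 with 1 left out. The 6 calls of ileum against jejunum became 2 in a fit of all libraries and 3 to 7 with 1 left out. In Btnl2-KO against WT small intestine the 0 calls became 1 with DESeq2 and 1 in a fit of all libraries. There the 3 genes called in all became 177, 219, 28 with a position covariate, and 324 without the Car1-high libraries, and the 0 genes in ileal γδ IELs became 221 with DESeq2 and 0 to 60 with 1 library left out. Genes called became 427, 0, 40, and 217 (from 100) in jejunal against duodenal IECs and 1336, 0, 565, and 1384 (from 860) in ileal against duodenal IECs, with DESeq2, all libraries, only the segments compared, and all but the doubted libraries. The cause of these changes was not tested.

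Of 96 fold changes of named members, 13 reversed under some setting, and none of the 13 was called. With the epithelial covariate the log2 fold change of Apob in jejunal against duodenal γδ IELs was 0.032, of Dgat1 in ileal against jejunal -0.26, and of Mttp in Btnl2-KO against WT duodenal γδ IELs -0.17. Apoa4 in Btnl2-KO small intestine was -1.18 with DESeq2 and -0.45 without the Gata4-high libraries, and Fabp1 in Btnl2-KO ileal IECs was -1.27 without the library whose Fabp6 goes against its label. With 1 library left out, jejunal against duodenal IECs gave -0.67 to 0.31 for Apoa1, -0.36 to 0.072 for Fabp2, and -0.17 to 0.52 for Apob, and ileal against jejunal IECs -2.95 to 0.72 for Cd36 and -0.47 to 0.16 for Dgat1. In γδ IELs Apob ranged from -0.54 to 0.076 (jejunum against duodenum) and Dgat1 from -0.10 to 0.17 (ileum against jejunum). Btnl2-KO against WT gave -1.25 to 2.88 for Apoa4 in small intestine, -4.38 to 1.65 for Apoa4 in duodenal IECs, -3.20 to 1.24 for Cd36 and -1.27 to 3.92 for Fabp1 in ileal IECs, -0.14 to 0.54 for Mttp in duodenal γδ IELs, and -0.12 to 0.72 for Fabp1 in jejunal γδ IELs.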
